A study of Homo sapiens with 4 samples.

Results

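The genes described here encode the proteins of the mitochondrial ribosome. They were taken as every gene whose symbol on the array platform starts with MRPL or MRPS followed by a digit, and 74 of the 18417 genes measured with 1 symbol per probe set met this rule. Of the 74, 48 are coding genes named for the large subunit (MRPL), 25 are coding genes named for the small subunit (MRPS), and 1, MRPS31P5, is a transcribed pseudogene. MRPL51, MRPS24, MRPS28 and MRPS6 share their probe sets with other symbols and were not analysed here.

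RNA of 2 established human osteosarcoma lines, HOS and U2-OS, was hybridised after 24 h of culture without OGE (0 μg/mL) or with OGE at 600 μg/mL, an agent whose name the labels leave abbreviated. Each of the 4 groups consists of a single array, so no line has replicates. The series addresses the response of these cells to OGE.

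Mitochondria carry their own ribosome, which translates the few messenger RNAs of the mitochondrial genome, all for subunits of the respiratory chain and ATP synthase. Its ribosomal RNA is made inside the organelle, whereas all of its proteins are encoded in the nucleus, translated in the cytosol and imported. The large subunit forms the peptide bond and passes the growing chain to the inner membrane, and the small subunit decodes the message. Some of the proteins have counterparts in the bacterial ribosome and others were added in the mitochondrial lineage.

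Values are the authors' deposited log2 intensities, in which probe sets differ in affinity, so differences in level from gene to gene are not interpreted. Array medians over all probe sets lay between 3.58 and 3.62, and treated and untreated arrays had a Pearson r over all probe sets of 0.980 for HOS and 0.968 for U2-OS. Of the 8 osteoblast-lineage markers measured of 9 listed, 5 were at or above the array median on all 4 arrays, and SPP1 and IBSP, both bone matrix genes, were under it on all 4. Their summed log2 level was 45.51 in HOS and 42.19 with OGE, and 39.32 in U2-OS and 36.95 with OGE. Single markers did not all run this way. COL1A2 was at 8.78 in untreated HOS and 4.46 in untreated U2-OS, while RUNX2, SPP1 and SPARC were higher in untreated U2-OS. SP7 was higher with OGE in both lines. Of the 4 immune markers measured of 5 listed, 3 were under the median on all 4 arrays, PTPRC among them, and the summed level ran from 10.31 to 12.45. The exception was CD68, a lysosomal protein, at 4.81 in HOS and 5.86 with OGE, and at 4.20 in U2-OS and 5.55 with OGE. All 3 endothelial markers were under the median on every array, and of the 5 epithelial markers the keratins KRT8 and KRT18 were above it on all 4. CDH1 was under it on all 4, EPCAM reached it on 2 arrays and KRT19 on 3. The summed epithelial level ran from 26.19 to 30.02. The part of these differences in the results below was not tested. In bulk RNA, fewer expressing cells and less RNA per cell cannot be told apart.

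Most mitochondrial ribosomal protein genes had signals above the middle of their arrays. The array median over all probe sets was reached on all 4 arrays by 69 of the 74, and 3 were under it on every array. Those 3 were MRPL13 at 1.98 in HOS, 1.81 with OGE, and 1.92 on both U2-OS arrays, MRPS18C at 2.33, 1.88, 2.06 and 1.88, and MRPS31P5 at 2.80, 3.34, 2.77 and 2.83, in the same order of arrays. Differences of these 3 genes are differences between low signals. MRPL1, the protein of the mobile stalk where spent transfer RNA leaves, was at 3.92 in HOS, 3.69 with OGE, 3.77 in U2-OS and 3.38 with OGE, so it was under the median on the last array alone. MRPL40, which lies in the chromosomal interval deleted in DiGeorge syndrome, was at 3.54, 3.80, 4.18 and 4.04 in the same order and was under it in untreated HOS alone. The median over the 74 genes was 6.40 in HOS and 6.30 with OGE, against 5.81 in U2-OS and 6.14 with OGE.

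**Figure D1:**
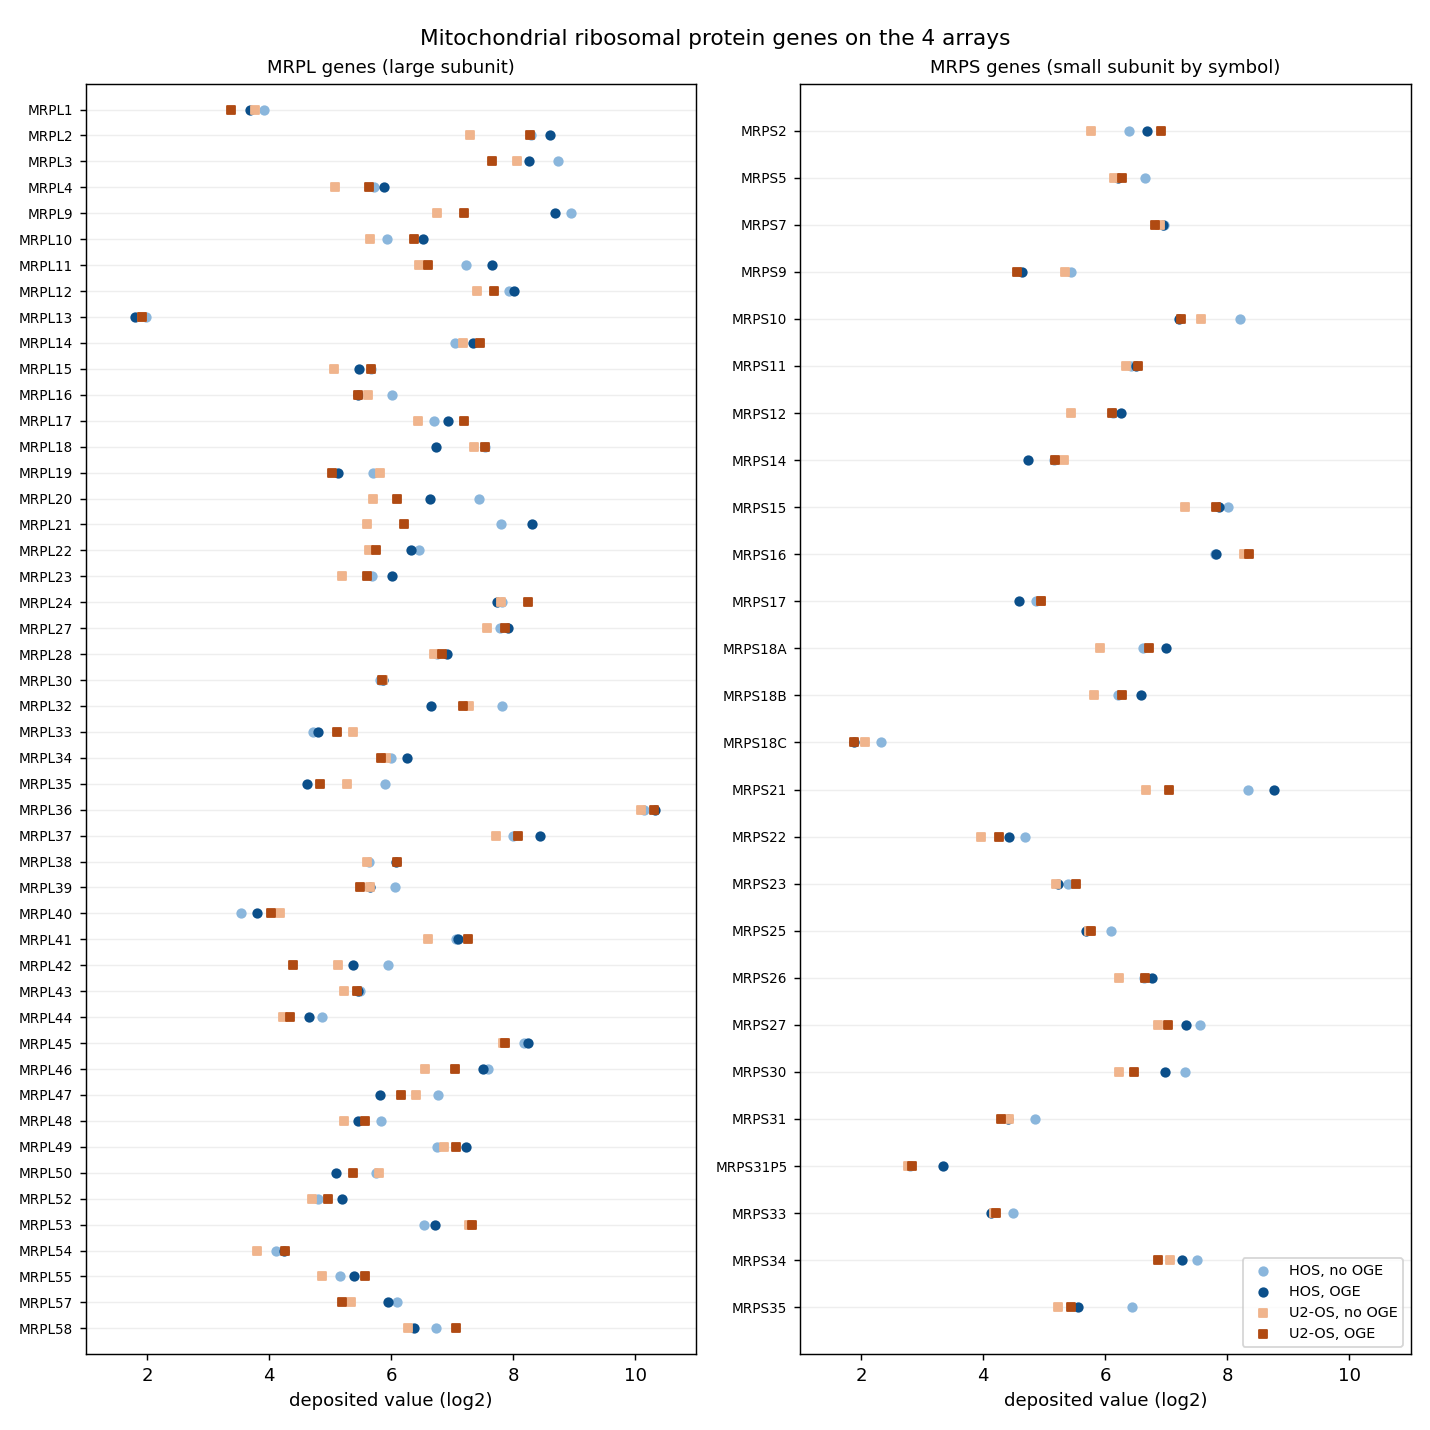
Deposited log2 value of each of the 74 mitochondrial ribosomal protein genes (rows, large-subunit and small-subunit genes in separate panels) on the 4 arrays, with 1 point per array and no replicates. HOS points of MRPL9, MRPL21 and MRPS21 lie more than 1 log2 unit to the right of the U2-OS points in both treatment states. Other genes, MRPL22 and MRPL57 among them, also split by line, but by less than 1 log2 unit. The points of most other genes lie within 1 log2 unit of each other.

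Promoter sequences were examined because these genes are transcribed from separate sites across the genome and are often described as a co-regulated group. RefSeq's promoter table for GRCh38.p14, with 250 bases before and 50 after the annotated start, held 66 of the 73 coding genes, and MRPL2, MRPL10, MRPL13, MRPL15, MRPL21, MRPL23 and MRPL35 were not in it. The promoters below are, among these 66, those of the genes with the largest mean OGE difference over the lines, 2 higher (MRPS2, MRPS18A) and 2 lower (MRPS9, MRPL19), and of MRPS21, which differed between the lines. They are printed 5′ to 3′ on the gene's strand. Capitals mark a match to the motif of NRF1 (GCGCNTGCG), of the ETS family (CCGGAAG) or of YY1 (AAGATGGCG), on either strand.
MRPS2: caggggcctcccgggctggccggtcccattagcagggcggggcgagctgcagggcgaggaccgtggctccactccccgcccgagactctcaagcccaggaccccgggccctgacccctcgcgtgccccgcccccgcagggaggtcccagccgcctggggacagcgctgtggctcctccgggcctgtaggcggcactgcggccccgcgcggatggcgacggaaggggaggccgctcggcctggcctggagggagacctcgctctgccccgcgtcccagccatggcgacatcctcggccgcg
MRPS18A: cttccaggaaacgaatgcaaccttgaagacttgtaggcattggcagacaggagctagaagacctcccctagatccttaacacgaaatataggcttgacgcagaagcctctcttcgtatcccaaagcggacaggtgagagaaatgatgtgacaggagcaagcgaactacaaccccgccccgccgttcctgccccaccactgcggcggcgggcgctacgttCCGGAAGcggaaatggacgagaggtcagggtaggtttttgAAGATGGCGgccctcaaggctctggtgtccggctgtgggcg
MRPS9: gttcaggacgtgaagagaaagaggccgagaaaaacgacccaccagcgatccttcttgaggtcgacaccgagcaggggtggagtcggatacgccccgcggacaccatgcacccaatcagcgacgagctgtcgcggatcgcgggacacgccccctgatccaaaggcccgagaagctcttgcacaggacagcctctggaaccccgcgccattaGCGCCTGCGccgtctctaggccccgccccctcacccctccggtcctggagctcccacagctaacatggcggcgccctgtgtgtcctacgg
MRPL19: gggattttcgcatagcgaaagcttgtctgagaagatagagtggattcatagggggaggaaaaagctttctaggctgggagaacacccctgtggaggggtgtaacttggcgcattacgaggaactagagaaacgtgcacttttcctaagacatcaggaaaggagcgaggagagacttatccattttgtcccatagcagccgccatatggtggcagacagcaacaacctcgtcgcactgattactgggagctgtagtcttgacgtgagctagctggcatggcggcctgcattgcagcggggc
MRPS21: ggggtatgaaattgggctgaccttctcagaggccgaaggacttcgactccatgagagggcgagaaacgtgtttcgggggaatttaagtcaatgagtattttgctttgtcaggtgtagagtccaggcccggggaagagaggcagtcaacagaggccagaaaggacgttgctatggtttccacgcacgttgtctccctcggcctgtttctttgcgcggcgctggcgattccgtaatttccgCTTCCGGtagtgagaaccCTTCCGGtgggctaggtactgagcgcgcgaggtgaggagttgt

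The windows are chr9:135500432-135500731 on the plus strand for MRPS2, chr6:43687742-43688041 on the minus strand for MRPS18A and chr2:105037819-105038118 on the plus strand for MRPS9. Those of MRPL19 and MRPS21 are chr2:75646533-75646832 and chr1:150293611-150293910, both on the plus strand. MRPS18A holds an ETS match that begins 31 bases before the start and a YY1 match that begins 10 bases after it. MRPS9 holds an NRF1 match 40 bases before the start. MRPS21 holds ETS matches on the reverse strand, 11 bases before and 8 bases after the start, whereas the windows of MRPS2 and MRPL19, and that of MRPL9, hold no match to the 3 motifs.

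Over the 66 promoters, the ETS motif, bound by the GABP complex among other factors, was present in 28, a share of 42.4%, against 10.7% of all 27305 promoters of the same length and 14.2% of the 15842 promoters of protein-coding genes. It was found in 16 of 41 large-subunit and 12 of 25 small-subunit promoters. YY1, a zinc finger factor that binds near transcription starts, had its motif in 12 promoters (18.2%, against 1.85% of all and 2.74% of coding promoters). NRF1, a factor known for nuclear genes of mitochondrial function, had its motif in 11 (16.7%, against 8.05% and 10.95%). At least 1 of the 3 motifs was in 41 of the 66 promoters (62.1%, against 18.3% of all), and 4 held both the ETS and the YY1 motif (6.06%, against 0.403%), with no overlapping matches among them. Other motifs were rarer: the E-box CACGTG was in 6 promoters (9.09%, against 7.44%), TATAAA in those of MRPL54 and MRPS15 (3.03%, against 11.95%) and the ATF4 motif TGATGNAA in that of MRPL55 (1.52%, against 3.67%). Genes with and without the ETS motif had median OGE differences of 0 and -0.13 in HOS, and of 0.17 each in U2-OS. Those with and without the NRF1 motif had -0.12 and -0.08 in HOS and 0.04 and 0.20 in U2-OS, and those with and without the YY1 motif -0.10 and -0.11 in HOS and 0.23 and 0.16 in U2-OS. Between the untreated lines, U2-OS minus HOS, the medians with and without the motif were -0.35 and -0.37 for ETS, -0.27 and -0.39 for NRF1, and -0.59 and -0.33 for YY1. None of these gaps was tested. A match is a run of letters and not a measured binding site.

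With OGE, the mitochondrial ribosomal protein genes as a group stood near their control values in HOS and slightly above them in U2-OS, with single genes on both sides in each line. The median difference, OGE minus control on the log2 scale, was -0.08 in HOS (range -1.28 to 0.59) and 0.19 in U2-OS (range -0.79 to 1.15). Over all 18417 genes the medians were 0.02 and 0.03, and over the 9209 genes at or above the median mean level they were 0.02 and -0.01. In HOS, 34 of the 74 genes were above 0 and 40 below it, and in U2-OS, 50 were above, 22 below and 2 at 0. Differences of -0.5 or lower were found for 12 genes in HOS (16.2%, against 13.2% of genes at that level) and 3 in U2-OS (4.05%, against 21.8%). Differences of 0.5 or higher were found for 3 in HOS (4.05%, against 11%) and 13 in U2-OS (17.6%, against 13.4%).

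Few of these differences reached 2-fold. A call by size required a log2 difference of 1 or more between the arrays, with the larger of the values no lower than the median of its array, a floor that 71 of the 74 genes passed in each comparison. In HOS, MRPL35 and MRPL32 were lower by this rule, 2.82% of the 71, where 2.18% of all genes at the floor were lower. None was higher, where 1.70% of all genes were. In U2-OS, MRPS2 was higher, 1.41% of the 71 against 2.94% of all genes, and none was lower, where 7.88% of all genes were. No gene of the group was called in the same direction in both lines, against 0.768% of all genes higher and 1.09% lower. At 1.5-fold in HOS, 1 of the 71 was higher (1.41%, against 7.43% of all genes) and 9 were lower (12.7%, against 9.68%). At 1.5-fold in U2-OS, 11 were higher (15.5%, against 10.1%) and 3 lower (4.23%, against 18.5%). In both lines at that size, MRPL10 was higher (1.41%, against 2.91%) and MRPS9 lower (1.41%, against 5.82%).

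The lines served as repeats of the OGE contrast in limma, fitted over all genes with the cell line as a term. It called 0 of the 74 genes, and 0% of all 18417, at a Benjamini-Hochberg adjusted p under 0.05. At an unadjusted p under 0.05 it listed 12 of the 74 (16.2%), 6 higher and 6 lower, against 14.2% of all genes. At or above the median mean level, it listed 17.65% of the members and 22.4% of all genes. The labels do not say whether the arrays represent separate cultures, and the p-values reflect the spread between these 4 arrays alone.

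Among the genes near the catalytic core of the large subunit, MRPL2 and MRPL3 had differences of opposite sign. MRPL2, whose bacterial counterpart lines the peptidyl transferase centre, was at 8.29 in HOS and 8.60 with OGE, and at 7.29 in U2-OS and 8.27 with OGE. Both lines were higher with OGE, by 0.31 and 0.98. Under quantile normalization the U2-OS difference reached 1.12, and under cyclic loess 1.06, both past the 2-fold size. MRPL3, whose mutations cause cardiomyopathy, was at 8.74 in HOS and 8.26 with OGE, and at 8.07 in U2-OS and 7.66 with OGE, lower by 0.48 and 0.41. MRPL14, the contact site of an anti-association factor at the subunit interface, was at 7.05 and 7.34 in HOS and at 7.17 and 7.46 in U2-OS, a difference of 0.29 in each line.

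The stalk that recruits translation factors was represented by MRPL10, which anchors it, MRPL12, which forms it, and MRPL11, at its base. MRPL10 was at 5.93 in HOS and 6.52 with OGE, and at 5.66 in U2-OS and 6.38 with OGE, so both OGE arrays lay above both control arrays. Its mean difference was 0.66 ± 0.09 (SD, n = 2 lines), and limma gave an adjusted p of 0.258. MRPL11 was at 7.23 and 7.66 in HOS and at 6.45 and 6.61 in U2-OS, differences of 0.43 and 0.16. MRPL12, named here for its role and after its values were seen, was at 7.93 and 8.02 in HOS and at 7.40 and 7.69 in U2-OS.

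At the exit of the peptide tunnel, the differences lay on both sides of 0. MRPL47 was at 6.77 in HOS and 5.81 with OGE, lower by 0.96, and at 6.40 in U2-OS and 6.16 with OGE, lower by 0.24. MRPL17 was at 6.71 and 6.93 in HOS and at 6.44 and 7.20 in U2-OS, higher by 0.22 and 0.76. MRPL22, a protein of the tunnel wall, was at 6.45 and 6.33 in HOS and at 5.64 and 5.76 in U2-OS, within 0.12 of its control in each line. MRPL45, which anchors the ribosome to the inner membrane and was also named for its role after its values were seen, was at 8.17 and 8.24 in HOS and at 7.84 and 7.87 in U2-OS.

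The genes with the lowest OGE differences in HOS, MRPL35 and MRPL32, encode other counterparts of bacterial large-subunit proteins. MRPL35 was at 5.90 in HOS and 4.62 with OGE, a difference of -1.28, and at 5.28 in U2-OS and 4.84 with OGE, a difference of -0.44. MRPL32, which the m-AAA protease must cleave before it joins the ribosome, was at 7.81 and 6.66 in HOS, a difference of -1.15, and at 7.27 and 7.18 in U2-OS, a difference of -0.09. MRPL18, which has been tied to the import of 5S ribosomal RNA, was at 7.53 and 6.73 in HOS and at 7.36 and 7.53 in U2-OS. The OGE array of HOS was thus the lowest of the 4 for all 3 genes.

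MRPL20, whose bacterial counterpart acts early in subunit assembly, was at 7.44 in HOS and 6.64 with OGE, and at 5.71 in U2-OS and 6.10 with OGE. It was lower by 0.80 in HOS and higher by 0.39 in U2-OS. MRPL19 was at 5.71 and 5.13 in HOS and at 5.82 and 5.03 in U2-OS, so both OGE arrays lay below both control arrays. Its mean difference was -0.69 ± 0.15 (SD, n = 2 lines), with a limma adjusted p of 0.256. MRPL55 was at 5.16 and 5.39 in HOS and at 4.86 and 5.57 in U2-OS, differences of 0.23 and 0.71. MRPL36, a very small protein of bacterial type, had 2 probe sets: the one used was at 10.14, 10.32, 10.09 and 10.30 on the HOS, HOS with OGE, U2-OS and U2-OS with OGE arrays. The other was at 7.55, 7.59, 7.01 and 6.95, with OGE differences of 0.04 and -0.06 where the first had 0.18 and 0.21, so the probe sets disagree in direction in U2-OS.

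Proteins that the mitochondrial large subunit gained in evolution also had differences on both sides of 0. MRPL42 was at 5.95 in HOS and 5.38 with OGE, and at 5.13 in U2-OS and 4.39 with OGE, a mean difference of -0.66 ± 0.12 (SD, n = 2 lines; limma adjusted p = 0.259). MRPL50 was at 5.75 and 5.09 in HOS and at 5.80 and 5.37 in U2-OS, lower by 0.66 and 0.43. In both genes each OGE array was below its control. MRPL37 and MRPL38, the second of which sits in the central protuberance, were higher in both lines, by 0.44 and 0.36 and by 0.44 and 0.48 in HOS and U2-OS. MRPL37 was at 8.0 and 8.44 in HOS and at 7.72 and 8.08 in U2-OS, and MRPL38 at 5.64, 6.08, 5.61 and 6.09 on the same arrays. MRPL49 was at 6.75 and 7.23 in HOS and at 6.86 and 7.07 in U2-OS, higher by 0.48 and 0.21.

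MRPL58, a peptidyl-tRNA hydrolase that frees stalled ribosomes and is built into the large subunit, was at 6.73 in HOS and 6.38 with OGE, and at 6.27 in U2-OS and 7.06 with OGE. It was lower by 0.35 in HOS and higher by 0.79 in U2-OS, where the OGE array was the highest of the 4.

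In the small subunit, MRPS2 was the gene called by size in U2-OS. MRPS2, mutated in a recessive mitochondrial disorder, was at 6.38 in HOS and 6.69 with OGE, and at 5.76 in U2-OS and 6.91 with OGE. The U2-OS arrays differed by 1.15, which is 2.22-fold, and the HOS arrays by 0.31. Its mean over the lines was 0.73 ± 0.59 (SD, n = 2 lines), with a limma adjusted p of 0.335. MRPS12, which shapes the decoding centre, was at 6.12 and 6.26 in HOS and at 5.43 and 6.11 in U2-OS, higher by 0.14 and 0.68.

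MRPS9, in the head of the small subunit, was at 5.43 in HOS and 4.64 with OGE, and at 5.34 in U2-OS and 4.55 with OGE. It was lower by 0.79 in each line, so its SD over the lines was 0, and limma, whose moderated standard error for it was 0.17, gave the smallest adjusted p of the 74 genes, 0.238. MRPS10, also in the head, was at 8.20 and 7.21 in HOS and at 7.57 and 7.24 in U2-OS, lower by 0.99 and 0.33. MRPS35 was at 6.43 and 5.55 in HOS and at 5.23 and 5.44 in U2-OS, lower by 0.88 in HOS and higher by 0.21 in U2-OS. MRPS16, mutated in a fatal neonatal disorder, was within 0.08 of its control in each line, at 7.79 and 7.82 in HOS and at 8.27 and 8.35 in U2-OS.

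The human genome holds 3 counterparts of bacterial protein S18, of which both with signals above the array median were higher with OGE in both lines. MRPS18A, whose protein sits in the large subunit despite its name, was at 6.61 in HOS and 6.99 with OGE, and at 5.91 in U2-OS and 6.71 with OGE, higher by 0.38 and 0.80. MRPS18B was at 6.20 and 6.59 in HOS and at 5.82 and 6.28 in U2-OS, higher by 0.39 and 0.46, and its 3 probe sets hold identical values. MRPS18C, under the median of every array, was lower by 0.45 and 0.18, between low signals.

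The naming rule used here takes the extremes and named 44 of the 74 genes. The OGE differences of the other 30 lay between -0.55 and 0.39 in HOS (median -0.06) and between -0.20 and 0.65 in U2-OS (median 0.24), with 24 of the 30 above 0 in U2-OS and 13 above 0 in HOS.

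The responses of the lines were set against each other gene by gene. Both lines were above 0 for 30 genes and below 0 for 18, and 20 were below 0 in HOS and above it in U2-OS, while 4 had the reverse pattern and 2 were at 0 in a line. The 20 make up 27.0% of the group, against 18.8% of all genes and 13.6% of genes at or above the median level. U2-OS had the higher difference for 54 of the 74 genes (73.0%, against 48.7% of all genes and 44.6% of those at that level) and HOS for 17. The median of the U2-OS minus the HOS response was 0.26, against -0.01 over all genes and -0.06 over those at that level. With 1 array per group, none of these differences between the responses was tested.

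Across the 74 genes, the differences in HOS and in U2-OS, which come from separate arrays, had a Pearson r of 0.566. Over all genes r was 0.442 and over genes at or above the median level 0.574, so the value lay near that of genes at this level in general. Genes are not independent replicates.

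The widest gaps between the responses were 1.19 for MRPL20, 1.14 for MRPL58, 1.09 for MRPS35, 1.06 for MRPL32 and 0.97 for MRPL18, all with the higher value in U2-OS. In the other direction, MRPS31P5 had a gap of -0.48, MRPL40 of -0.40, MRPL34 of -0.34, MRPL33 of -0.33, and MRPL49 and MRPL11 of -0.27 each. MRPL34, at 5.99 and 6.26 in HOS and at 5.91 and 5.84 in U2-OS, and MRPL33, at 4.72 and 4.80 in HOS and at 5.37 and 5.12 in U2-OS, are small proteins of bacterial type. The gaps toward U2-OS were the wider ones.

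**Figure D2:**
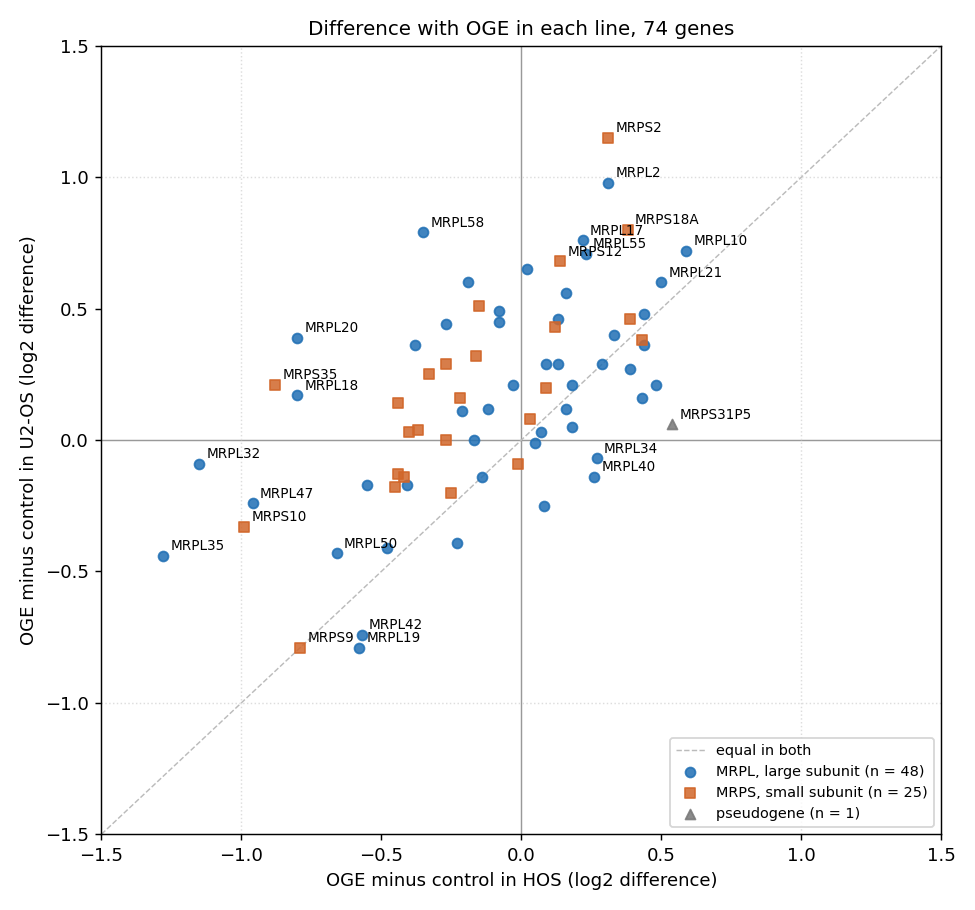
OGE minus control on the log2 scale in HOS (x axis) and in U2-OS (y axis) for the 74 mitochondrial ribosomal protein genes, with symbols by subunit and a dashed line where both lines are equal; each point rests on 4 arrays and carries no error bar. Of the 74 points, 54 lie above the dashed line, and MRPL20, MRPL58 and MRPS35 lie farthest above it.

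Genes with shorter spans tended to have higher OGE differences. The 37 genes with the shorter spans (677 to 8618 bases in RefSeq's GRCh38.p14 annotation) had a median difference of 0.12 in HOS and 0.29 in U2-OS, and the 37 with the longer spans (8667 to 100838 bases) one of -0.22 and 0.06. The Pearson r of the difference with log10 of the span was -0.262 in HOS and -0.320 in U2-OS over the 74 genes, and -0.163 and -0.237 over all genes. These are descriptions across genes of the same arrays.

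Between the subunits, the OGE medians were further apart in HOS than in U2-OS. The 48 large-subunit genes had a median of 0.04 in HOS, with 25 above 0 and 23 below, and the 25 small-subunit genes one of -0.25, with 8 above and 17 below, a gap of 0.29. In U2-OS the medians were 0.21 and 0.16, a gap of 0.05. Between the lines, the U2-OS minus HOS medians were -0.33 and -0.42 without OGE and -0.07 and -0.09 with it, gaps of 0.10 and 0.02. Counting MRPS18A and MRPS30, whose proteins sit in the large subunit, with that subunit left the gap in HOS at 0.29 and turned that between the lines with OGE to -0.04.

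Proteins with and without a bacterial counterpart were also set apart, with MRPL55 counted among the 45 that have one. In HOS their median OGE difference was 0.03, against -0.19 for the 28 found in mitochondria only, and in U2-OS the medians were 0.17 and 0.21. Classed by symbol, 10 MRPS genes encode proteins found in mitochondria only, MRPS30 among them. Their median was -0.30 in HOS, with 9 of 10 below 0, and 0.19 in U2-OS. The 15 MRPS genes with a bacterial counterpart, MRPS18A among them, had medians of -0.01 and 0.14. The corresponding large-subunit medians in HOS were 0.07 for the 30 with a counterpart and -0.01 for the 18 without one. Genes are not replicates of a subunit, and no test was made of these gaps.

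Between the untreated lines, most of the group was lower in U2-OS than in HOS. The median of U2-OS minus HOS was -0.38 without OGE (range -2.20 to 0.73), with 63 of the 74 genes below 0. This is 85.1%, against 52.4% of all genes and 50.5% of genes at or above the median level, whose median was -0.01. Differences of -0.5 or lower were found for 28 genes (37.8%, against 17.6% of genes at that level), and differences of 0.5 or higher for 3 (4.05%, against 19.7%). With OGE the median was -0.09, or -0.02 after either quantile normalization or cyclic loess. In that state 44 genes were below 0 (59.5%, against 50.4% of all genes and 52.6% of genes at or above the median level). At -0.5 or lower there were 11 (14.9%, against 14.0% of all genes and 19.2% of genes at that level). In all, 41 genes were below 0 in both states and 8 above it in both, while 21 were below 0 without OGE and above it with OGE. This narrowing is the same measurement as the gap between the OGE responses, since both use the same 4 arrays.

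By size, 8 of the 71 genes at the floor were lower in U2-OS without OGE (11.3%, against 5.64% of all genes) and none was higher (8.26% of all genes). With OGE, 4 of 71 were lower (5.63%, against 6.24%) and none higher (4.89%). In both states, MRPL9, MRPL21 and MRPS21 were lower (4.23%, against 3.17%) and none was higher (3.0%). At 1.5-fold in both states, 7 were lower (9.86%, against 8.42%) and 1 was higher (1.41%, against 7.61%). The same 3 were lower in U2-OS by limma with OGE as a term, at an adjusted p under 0.05, which is 4.05% of the 74 against 1.04% of all genes, and none was higher, against 0.885%. Fitted to genes at or above the median mean level alone, limma called the same 3. That is 4.41% of the members at that level, near the 4.32% of all genes at that level called lower. After quantile normalization limma called 5 of the 74, all lower (6.76%, against 4.33% of all genes lower and 9.57% called in either direction). With trend and robust moderation it also called 5, all lower (6.76%, against 3.63% lower and 7.11% in either direction). After cyclic loess it called 4, all lower (5.41%, against 3.25% lower and 7.20% in either direction). At an unadjusted p under 0.05, limma listed 15 of the 74 (20.3%, against 20.7% of all genes), of which 13 were lower and 2 higher in U2-OS.

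MRPL21, a counterpart of bacterial L21, was at 7.80 in HOS and 8.30 with OGE, and at 5.61 in U2-OS and 6.21 with OGE. The untreated HOS value was 4.56-fold that of U2-OS. The mean of U2-OS minus HOS was -2.14 ± 0.07 (SD, n = 2 treatment states; SE 0.17), with a limma adjusted p of 0.0303. For this and the other genes, the treatment states served as the repeats of the line contrast, with 1 array per line and state. Neither the SD nor the p-value measures spread between cultures of a line. OGE arrays were higher than controls by 0.50 in HOS and 0.60 in U2-OS, less than the differences of -2.19 and -2.09 between the lines.

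MRPL9, a counterpart of bacterial L9, was at 8.95 in HOS and 8.68 with OGE, and at 6.75 in U2-OS and 7.19 with OGE. Its mean difference was -1.85 ± 0.50 (SD, n = 2 states; SE 0.24), with a limma adjusted p of 0.048. The difference was -2.20 without OGE, which is 4.59-fold, and -1.49 with it.

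MRPS21, a counterpart of bacterial S21, was at 8.33 in HOS and 8.76 with OGE, and at 6.67 in U2-OS and 7.05 with OGE. Its mean difference was -1.69 ± 0.04 (SD, n = 2 states; SE 0.17), with a limma adjusted p of 0.0405. The untreated HOS value was 3.16-fold that of U2-OS. For all 3 genes every HOS array lay above every U2-OS array, as it did for other genes with smaller differences, such as MRPL22 and MRPL57. Without the OGE term in limma none of the 3 passed, and the smallest adjusted p of the 74 genes was 0.0553.

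The other genes called by size between the lines were called in 1 state only. Without OGE, MRPL20 was lower in U2-OS by 1.73 and MRPS35 by 1.20, and with OGE by 0.54 and 0.11, from the values given above. MRPS30, which is related to MRPL37 and sits in the large subunit, was at 7.30 and 6.97 in HOS and at 6.22 and 6.47 in U2-OS, lower by 1.08 and 0.50. MRPL46, a protein of the central protuberance, was at 7.59 and 7.51 in HOS and at 6.55 and 7.04 in U2-OS, lower by 1.04 and 0.47. MRPL2 was lower by 1.00 and 0.33. With OGE alone, MRPL11 was lower by 1.05, against 0.78 without it. The calls of MRPL2, MRPL46 and MRPL11 ended after quantile normalization (-0.88, -0.97 and -0.97) and after cyclic loess (-0.91, -0.97 and -0.95).

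MRPL42 was lower in U2-OS by 0.82 without OGE and 0.99 with it, with a limma adjusted p of 0.083, and the adjusted p of MRPL11 was 0.086. Both passed 0.05 in limma after quantile normalization and with trend and robust moderation. MRPL57, a small protein of the mitochondrial large subunit, was at 6.09 and 5.95 in HOS and at 5.34 and 5.20 in U2-OS, lower by 0.75 in both states. MRPL3 and MRPL22 were lower by 0.67 and 0.81 without OGE and by 0.60 and 0.57 with it.

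A few genes ran the other way. MRPL53 was at 6.54 in HOS and 6.72 with OGE, and at 7.27 in U2-OS and 7.32 with OGE, so both U2-OS arrays were above both HOS arrays, with a limma adjusted p of 0.130. MRPS16 was higher in U2-OS by 0.48 and 0.53, MRPL33 by 0.65 and 0.32 and MRPL40 by 0.64 and 0.24, without and with OGE. MRPS14, at 5.16 and 4.74 in HOS and at 5.32 and 5.18 in U2-OS, and MRPS17, at 4.86 and 4.59 in HOS and at 4.95 on both U2-OS arrays, had smaller differences in that direction. Of the 30 genes outside the naming rule, 29 were below 0 without OGE and 20 with it.

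**Figure D3:**
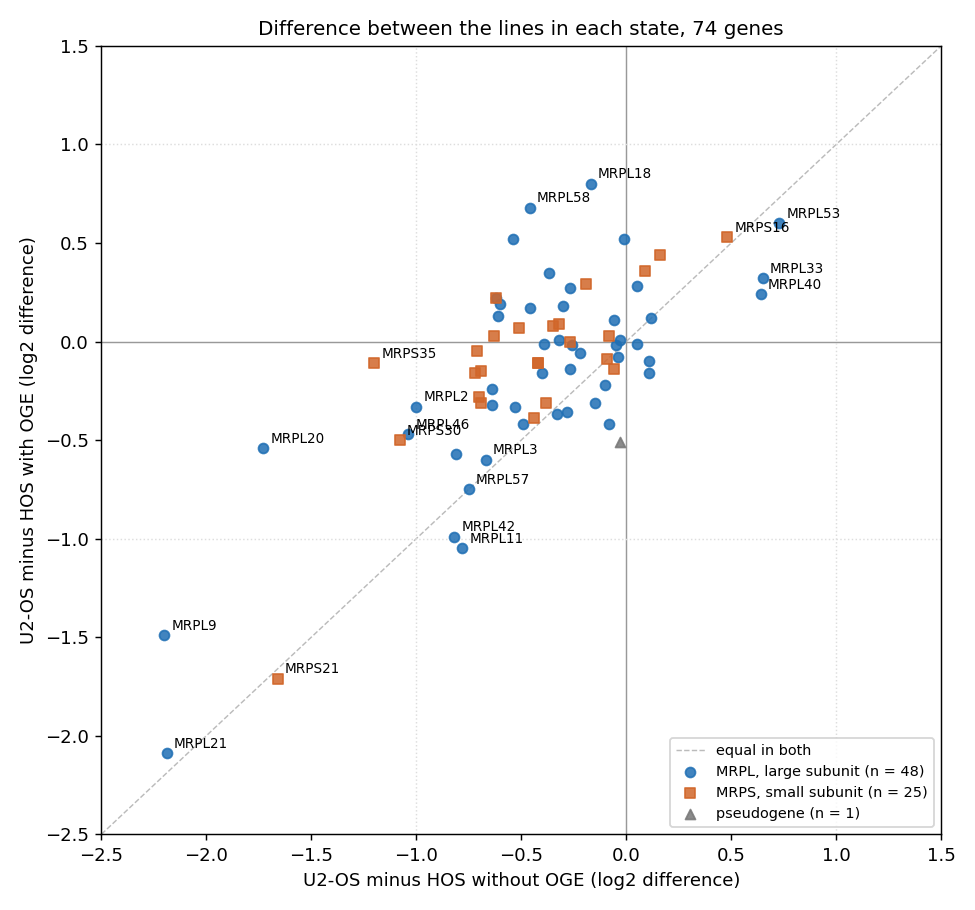
U2-OS minus HOS on the log2 scale without OGE (x axis) and with OGE (y axis) for the 74 genes, with symbols by subunit; each point rests on 4 arrays and carries no error bar. MRPL9, MRPL21 and MRPS21 lie at the lower left, below -1 in both states, and 63 of the 74 points lie left of 0.

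The other genes of mitochondrial translation were taken from lists, with limma calling 0 members of any list for OGE. Of the 5 listed mitochondrial ribosomal proteins under other symbols, 4 were measured with 1 symbol. DAP3, a GTP-binding small-subunit protein, was at 5.15 in HOS and 5.29 with OGE, and at 5.52 in U2-OS and 6.35 with OGE. PTCD3, a pentatricopeptide-repeat protein, was at 7.30 and 6.49 in HOS and at 6.60 and 5.90 in U2-OS, lower by 0.81 and 0.70 with OGE. CHCHD1 was lower by 0.73 and 0.22, and GADD45GIP1 higher by 0.27 and 0.23. In each line, 2 of the 4 were above 0 and 2 below it.

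The 27 mitoribosome assembly genes had median OGE differences of -0.02 in HOS and 0.23 in U2-OS. By size in U2-OS, RPUSD4, a pseudouridine synthase, was higher by 1.13, and TRMT61B, an RNA methyltransferase, and FASTKD2, which binds the large ribosomal RNA, were lower by 1.53 and 1.14. That is 1 higher and 2 lower of the 25 at the floor, where 2.94% and 7.88% of all genes were. TFB1M, which methylates the small ribosomal RNA, had differences of -0.89 in HOS and 0.27 in U2-OS. MRM3, another ribosomal RNA methyltransferase, was lower in U2-OS than in HOS by 1.39 and 1.42, without and with OGE. It was the 1 member of the 27 that limma called between the lines (adjusted p = 0.0434), where 1.04% of all genes were called lower.

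Of the 16 listed translation factors 15 were measured, and their medians with OGE were -0.25 in HOS and -0.32 in U2-OS, with 12 of 15 below 0 in U2-OS. None of the 13 at the floor was called by size in either line. Of all genes at the floor, 1.70% were higher and 2.18% lower in HOS, and 2.94% and 7.88% in U2-OS. LRPPRC and SLIRP, which together stabilise mitochondrial messenger RNA, had differences of -0.24 and -0.82 in HOS and of -0.88 and -0.45 in U2-OS. GFM1, an elongation factor, had -0.78 and -0.41, and MTFMT, which formylates the initiator transfer RNA, -0.75 and -0.59. Between the lines, the medians were -0.45 without OGE and -0.49 with it.

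The 7 genes of mitochondrial transcription and replication had a median of 0.11 in each line. TWNK, the mitochondrial DNA helicase, was at 5.69 and 6.67 in HOS and at 5.03 and 5.99 in U2-OS, higher by 0.98 and 0.96 with OGE, with a limma adjusted p of 0.228. TFAM, which packages mitochondrial DNA, had differences of -0.12 and -0.79. The 8 regulators of mitochondrial genes had medians of -0.05 and 0.27, with ESRRA, an orphan nuclear receptor, higher by 0.41 and 0.67. Nuclear genes of the respiratory chain and ATP synthase, 84 in all with the assembly genes that carry COX symbols, had medians of -0.10 and -0.02. Mitochondrially encoded genes were not analysed here.

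The 59 cytosolic ribosomal protein genes had median OGE differences of 0.11 in HOS and 0.23 in U2-OS, with 47 of 59 above 0 in U2-OS. Between the untreated lines their median was -0.35, with 51 of 59 below 0, near the -0.38 and 63 of 74 of the mitochondrial ribosomal protein genes. With OGE it was -0.25, where that of the mitochondrial group was -0.09 on the same deposited values. limma called none of the 59 between the lines (smallest adjusted p 0.0534) and 3 of the 84 respiratory genes, ATP5MG, ATP5MJ and NDUFV1, all lower in U2-OS. Of all genes it called 1.04% lower and 0.885% higher. By the medians, a lower value in untreated U2-OS than in HOS was not found in the mitochondrial ribosomal protein genes alone.

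**Figure D4:**
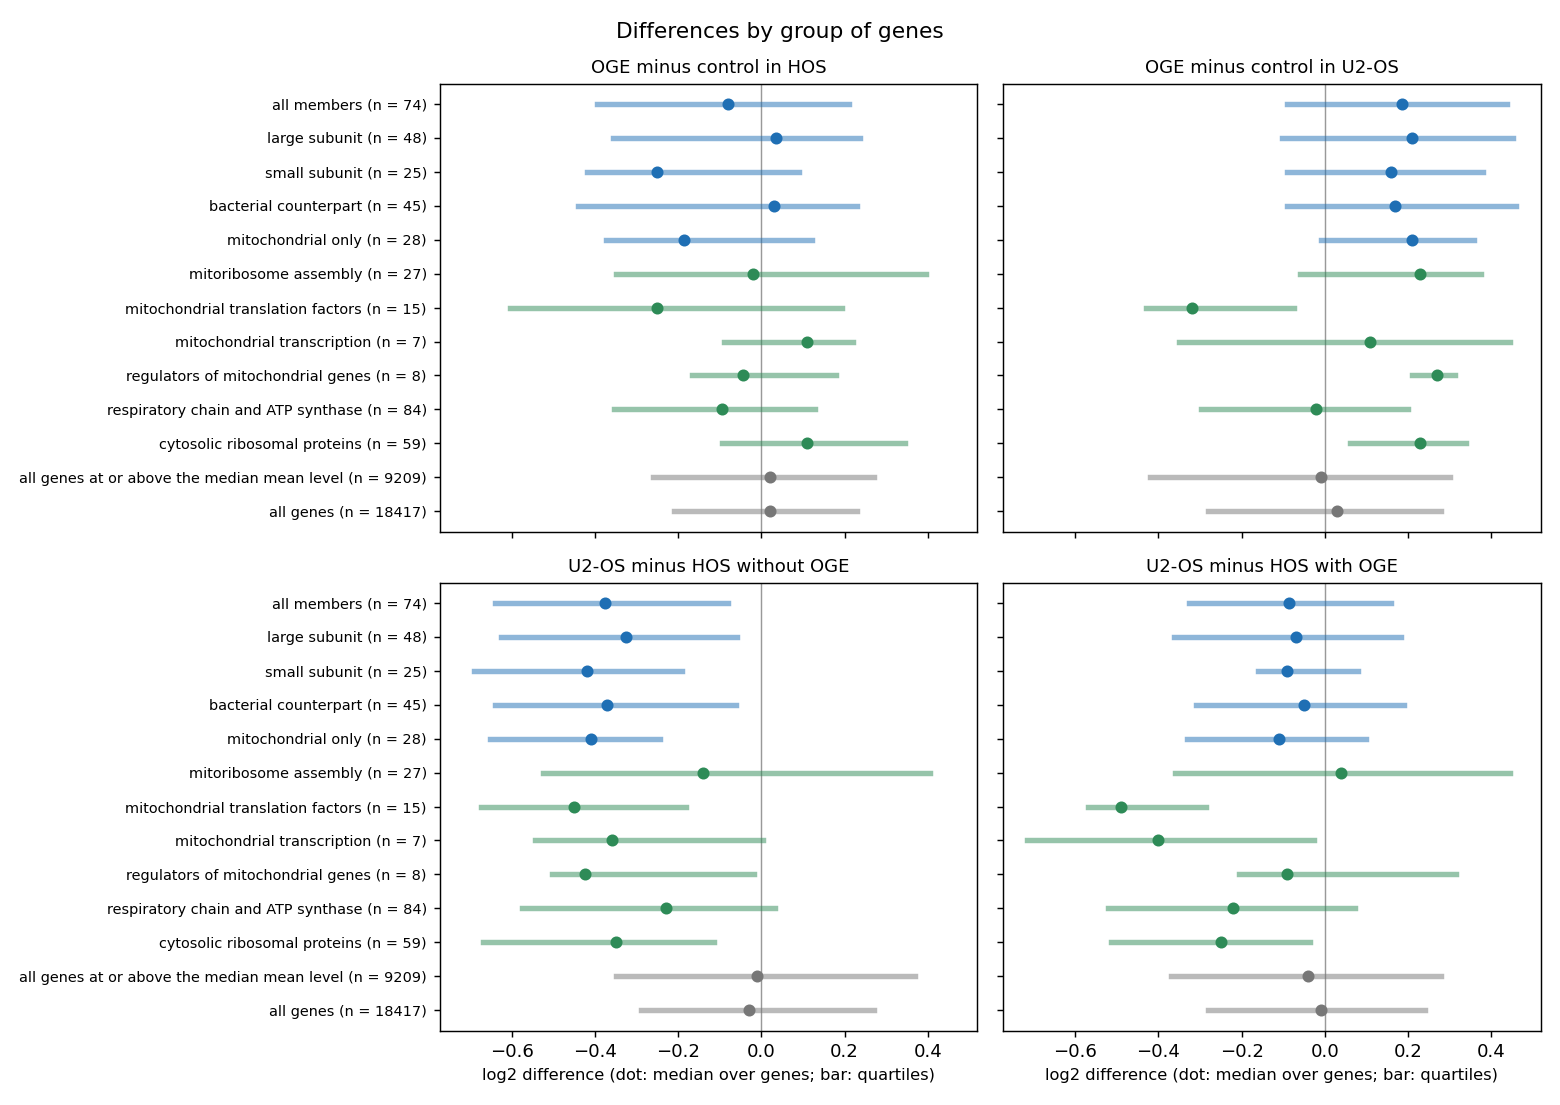
Median (dot) and quartiles (bar) of the log2 difference over the genes of each list, in 4 panels for OGE minus control in HOS and in U2-OS and for U2-OS minus HOS without and with OGE; n is the number of genes measured, and bars show the spread over genes, not over replicates. Between the untreated lines, the medians of the mitochondrial and the cytosolic ribosomal protein genes lie at -0.38 and -0.35.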

How the data were processed

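Trizol-extracted total RNA was amplified by a whole-transcript protocol and biotin-labelled for single-colour arrays, per the labels' protocols. The deposited log2 values come from RMA according to the submitters' processing notes (version not given), and their base was inferred from their range of 0.16 to 13.41. RMA normalizes arrays to each other, so a global shift in expression may be reduced, but the deposited arrays still differed in distribution: quantile normalization moved the OGE difference of MRPL36 in U2-OS from 0.21 to 0.45.

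The platform annotation of 2016 gives 1 gene symbol for 19460 of the 33297 probe sets. Of these, 19429 were matched by gene ID to RefSeq (GRCh38.p14) for their current symbol and the rest kept the annotation's, which gave 18417 genes, each with its highest-mean probe set. The 74 genes have 78 probe sets. No source used here names the genome build of the probe sets.

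Within a line no test is possible with 1 array per group. limma 3.58.1 in R 4.3.3 was fitted to all 18417 genes with line and OGE as terms, leaving 1 residual degree of freedom, and p-values were Benjamini-Hochberg adjusted with a threshold of 0.05. Precision is limited by the number of arrays. The limma OGE term and the call of rises by size in both lines were run on simulated arrays. Their OGE changes were equal in the lines, so that simulation covers neither the line contrast nor responses that differ between the lines.

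Genes named are those called by size or limma, the 8 highest and 8 lowest OGE differences per line, the 5 widest gaps between the responses in each direction, the 8 in each direction by the smaller line difference, the 5 members with the highest and the 5 with the lowest mean values, MRPS18A and MRPS30, and up to 4 per pathway list with the largest OGE differences. The members and lists were chosen with earlier results of these data known. Alternatives were other fold sizes and floors, quantile normalization, cyclic loess, the mean of probe sets, other limma settings, coding or well-measured members only, and another subunit assignment of MRPS18A and MRPS30.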

Additional observations from a re-analysis of the deposited data

Results flagged for a closer look

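For 3 genes, HOS and U2-OS moved in opposite directions with OGE and their responses were at least 1 log2 unit apart. The U2-OS minus HOS response was 1.19 for MRPL20, 1.14 for MRPL58 and 1.09 for MRPS35. Each was below its control in HOS and above it in U2-OS. With 1 array per line and treatment, the difference between the responses was not tested.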

How the results depend on the processing

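No block by replicate number could be fitted, since each group holds 1 array and the labels give no such numbers. With the line as a term, limma's OGE term compares OGE with control after allowing for the difference between the lines. Over all settings tried, 74 recomputed counts and medians stayed within the limits set, 11 moved and 1 reversed. At 1.5-fold, the counts by size were 10 in HOS, 14 in U2-OS, 2 in the same direction in both lines and 8 between the lines in both states, against 2, 1, 0 and 3 at 2-fold. Of all genes at 1.5-fold, 7.43% were higher and 9.68% lower in HOS, 10.1% higher and 18.5% lower in U2-OS, 2.91% higher and 5.82% lower in both lines, and 7.61% higher and 8.42% lower between the lines in both states. At 3-fold they were 0 in HOS and 0 in U2-OS. Quantile normalization and cyclic loess each gave 2 in U2-OS, where MRPL2 joined MRPS2. With MRPS18A and MRPS30 in the large subunit, the large minus small gap between the lines with OGE turned from 0.02 to -0.04. limma's 3 genes between the lines became 5 after quantile normalization (6.76%, against 9.57% of all genes in either direction), 5 with trend and robust moderation (6.76%, against 7.11%) and 0 without the OGE term (against 0.711%). For OGE, limma called 0 of the 74 genes under every setting, with smallest adjusted p-values from 0.0878 to 0.762. After quantile normalization it called 264 of all genes, against 0 on the values as deposited. Of the differences of single named genes under the alternatives, 454 stayed within the limits, 66 moved, 6 lost their call and 2 gained one.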
